A study of Homo sapiens with 4 samples.

Results

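ACHN is an established human renal cell carcinoma line. Its cells were transfected, with a lipid reagent, either with a control siRNA (siNC) or with an siRNA against PRR11 (siPRR11), a proline-rich protein that the study examined in renal carcinoma, and RNA was sequenced to ask what lies downstream of PRR11. Each group held 2 libraries, named here replicate 1 and replicate 2, and both groups shared the line, the medium and the transfection reagent. The study's methods list more than one siPRR11 duplex, and neither the duplex used for sequencing nor the time between transfection and harvest is given in the sources used here. Whether the replicates were separate cultures is not stated either, so p-values measure the spread between these libraries, which may be technical.

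The genes described here are those of DNA replication licensing and of the replication fork. They were listed by name from what their proteins do, as 55 of the 36359 genes in the count table. No measured value enters that rule, but the list was made with earlier results of these data known. They fell into 7 roles. Origin licensing had 9 genes, the CMG helicase with its activating factor MCM10 had 12 and replicative polymerases had 12. The sliding clamp and its loaders had 7, Okazaki fragment processing 6, fork protection 6 and replication-coupled chromatin 3.

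A chromosome is copied once per cell cycle. In G1 phase the origin recognition complex (ORC), CDC6 and CDT1 load rings of MCM2 to MCM7 onto DNA, a step known as licensing, and geminin (GMNN) holds CDT1 in check once S phase has begun. At S phase entry CDC45 and the GINS complex join the ring to form the active CMG helicase, and DNA polymerases, the PCNA clamp, the RFC clamp loader and enzymes that join the lagging-strand fragments follow it. Many of these genes are transcribed from late G1 under the control of E2F transcription factors, and cancer lines that divide in culture, ACHN among them, express them.

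Libraries held between 59003839 and 92612749 counted reads, and 21630 genes had enough counts to be tested, among them all 55 replication genes. The lowest count of any replication gene in any library was 134. Values within a gene are given below as TMM-normalised CPM, counted reads scaled to the size of each library, in the order siNC replicate 1, siNC replicate 2, siPRR11 replicate 1 and siPRR11 replicate 2. Levels of different genes are compared only as RPKM, which also divides by the exonic length listed for the gene. That length may differ from that of the RNA made in these cells, which was not examined. A gene was called higher or lower where its adjusted p-value in edgeR's quasi-likelihood test, over all genes tested, was under 0.05, and each log2 fold change is siPRR11 minus siNC with its standard error (SE).

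PRR11 (chr17:59155499-59204705, GRCh38) stood at 41.3 and 40.4 CPM in siNC and at 15.3 and 14 CPM in siPRR11. The siPRR11 mean was 35.9% of the siNC mean (log2 fold change -1.48, SE 0.0909, adjusted p = 3.35e-06), which matches the labels. Of 9 renal epithelial markers, 8 were expressed well enough to be tested (PAX8, PAX2, KRT7, KRT8, KRT18, KRT19, MET and EPCAM, with RPKM between 3.39 and 234 in siNC), and CDH6 had 2 to 6 counts per library. Of these 8, KRT19 (log2 fold change -0.70) and EPCAM (-0.65) were called lower and KRT18 (0.36) higher. There were 10 markers of leukocytes, endothelium, smooth muscle and hepatocytes. Among them the leukocyte gene PTPRC, the T-cell gene CD3E and the endothelial genes PECAM1 and CDH5 had at most 8 counts in any library. The smooth muscle gene ACTG2 had 4 to 16 and was not tested either. The 5 that could be tested were CD68, LYZ, VWF, MYH11 and ALB. Apart from CD68, their counts per library ran from 12 (VWF) to 572 (MYH11). None of these 5 was called at an unadjusted p under 0.05 or by DESeq2 or limma. The summed CPM of those 5 was 64.0 and 52.0 in siNC and 68.4 and 62.2 in siPRR11, most of it from CD68, a lysosomal protein that is not confined to leukocytes.

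Replication genes were called higher far more often than lower after siPRR11. Of the 55 genes, 27 were called higher, 3 were called lower (MCM6, RFC2 and CHAF1A) and 25 were not called. Called genes thus made up 54.5% of the replication genes. Among all genes tested, 16.7% were called, 7.61% higher and 9.14% lower. Because replication genes are well expressed, the fairer background is the 13144 genes at or above the lowest average level of a replication gene (1.63 on the log2 CPM scale). Of these, 23.8% were called, 10.7% higher and 13.2% lower. The counts by role and complex below are to be read beside the same shares. The median log2 fold change of the 55 genes was 0.28 and that of all genes tested was 0.00. The point estimate was positive for 48 genes and negative for 7.

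Changes were modest in size. The called genes ranged in absolute log2 fold change from 0.26 to 0.79, and SEs over the 55 genes ran from 0.0713 to 0.165. The CPM of all 55 genes summed to 3097 and 3118 in siNC and to 3593 and 3628 in siPRR11, so the summed level in siPRR11 was 1.16 times that in siNC. The values of the groups did not overlap for 46 genes, 40 of them higher in siPRR11, against 58.4% of all genes tested. Leaving out siPRR11 replicate 2 took the count of genes called higher from 27 to 17, and leaving out siPRR11 replicate 1 took it to 20. Without siNC replicate 1 or without siNC replicate 2 it was 28. In bulk RNA, a larger share of cells in S phase and more RNA of these genes per cell cannot be told apart.

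**Figure D1:**
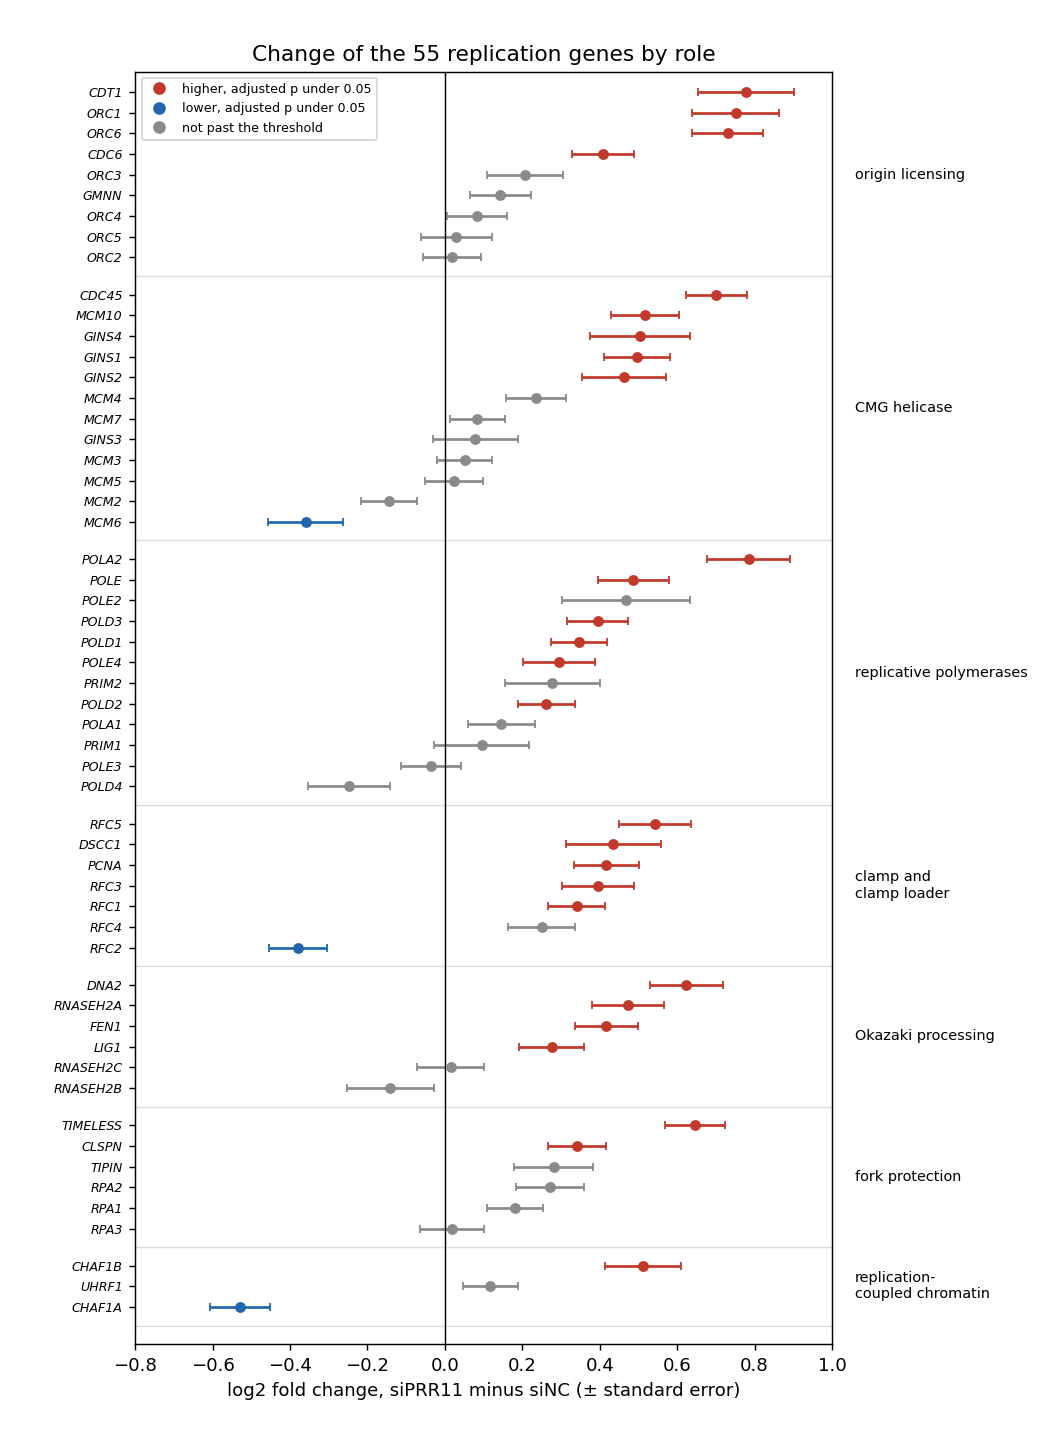
Log2 fold change (siPRR11 minus siNC, horizontal axis) of each of the 55 replication genes, grouped by role, with points for the estimate and bars for ± 1 SE. Red points (27) were called higher and blue points (3) lower; in the licensing, helicase, polymerase, Okazaki and fork protection roles, genes called higher stood beside genes near 0.

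**Figure D2:**
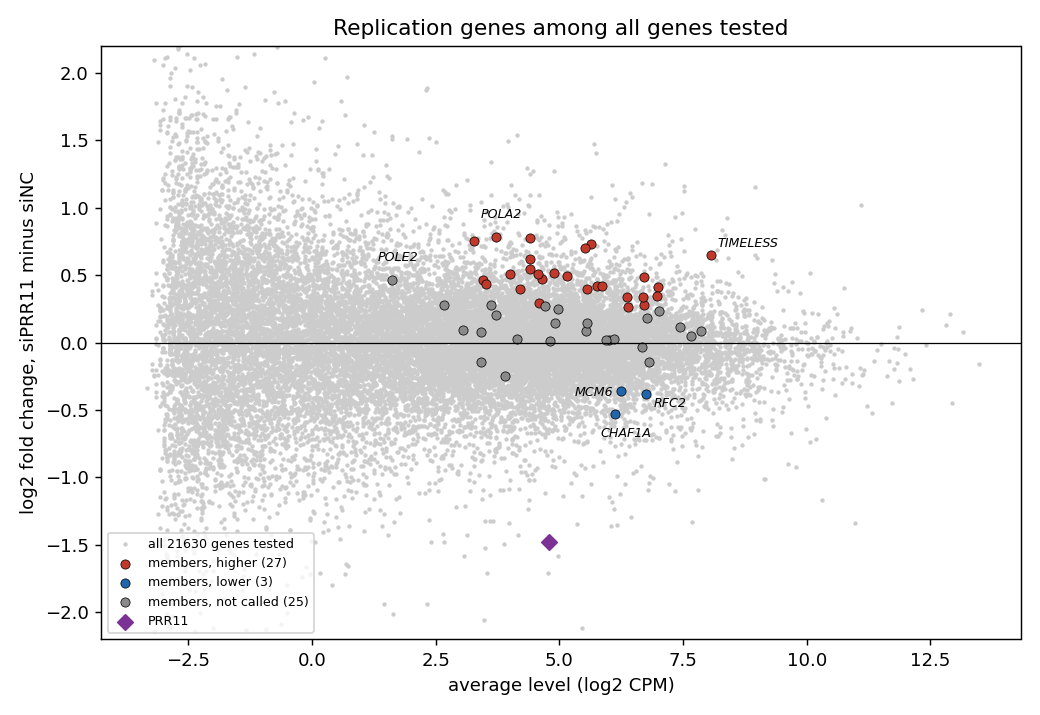
Log2 fold change (vertical axis) against average level in log2 CPM (horizontal axis) for all 21630 genes tested (grey dots) with the 55 replication genes and PRR11 drawn over them, leaving 63 genes outside the plotted range. Red points (27, called higher) lay between 0.26 and 0.79, the 3 blue points (called lower) were MCM6, RFC2 and CHAF1A, and PRR11 lay at -1.48.

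Several of these genes carry a sequence that E2F factors are known to bind just upstream of their start. RefSeq promoter windows (GRCh38.p14, from 250 bases before the start to 50 after it) were used for 47 of the 55 genes, and not for DNA2, RPA2, RPA3, MCM4, MCM5, POLD3, GINS4 and DSCC1. The letters TTTCGCGC, TTTGGCGC, TTTCCCGC or TTTGCCGC, searched on both strands, occurred in the windows of 22 of the 47 genes (46.8%), against 3.99% of the 27305 genes with a window. Those 27305 genes were not matched to the replication genes in level or in base composition. Matches on opposite strands may overlap one another and were counted each. Stretches of 5 promoters are shown to let the letters be seen beside the change in RNA. POLA2 and CHAF1A are the called genes with the largest fitted rise and the largest fitted fall, and CDT1, PCNA and MCM6 were added after their values were seen. Each is written 5′ to 3′ along the strand of the gene, with E2F letters in capitals on either strand, which in MCM6 include overlapping matches on both.
POLA2: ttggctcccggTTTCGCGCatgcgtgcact
CDT1: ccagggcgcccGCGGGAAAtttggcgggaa
PCNA: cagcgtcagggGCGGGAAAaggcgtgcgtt
MCM6: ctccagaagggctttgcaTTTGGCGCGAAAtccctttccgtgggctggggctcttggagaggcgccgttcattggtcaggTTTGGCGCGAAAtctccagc
CHAF1A: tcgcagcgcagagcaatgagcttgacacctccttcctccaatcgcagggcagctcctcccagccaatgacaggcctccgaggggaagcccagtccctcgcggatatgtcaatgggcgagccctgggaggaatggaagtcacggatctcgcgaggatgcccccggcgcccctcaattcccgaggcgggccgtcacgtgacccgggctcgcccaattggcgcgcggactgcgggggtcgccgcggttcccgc

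The stretches lie at chr11:65261898-65261927 on the plus strand (POLA2), chr16:88803743-88803772 on the plus strand (CDT1), chr20:5126663-5126692 on the minus strand (PCNA), chr2:135876514-135876613 on the minus strand (MCM6) and chr19:4402390-4402639 on the plus strand (CHAF1A). The MCM6 stretch held 4 matches, which overlap in pairs on opposite strands, and its RNA was lower. POLA2, CDT1 and PCNA held 1 each and their RNA was higher. Because these promoters were picked, no relation between matches and change is drawn from them. The 250 bases before the CHAF1A start held none of the letters, which says only that these letters are not in this window. Over the 47 genes the median log2 fold change was 0.29 for the 22 with a match and 0.26 for the 25 without. Of the genes with a match, 11 were called higher and 1 lower, and of those without, 12 were called higher and 2 lower.

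Other promoter elements were also counted in these windows. The letters CCAAT, known as the site of NF-Y, were in 63.8% of the replication genes with a window and in 39.7% of all genes with one. The GC box letters GGGCGG stood at 76.6% and 48.3%. The letters TTTGAA, the core of the CHR element of many mitotic promoters, were in 1 of the 47 genes, POLE3, against 18.2% of all genes. These shares describe the windows, were set against the same unmatched genes and were not tested.

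Origin licensing genes were called higher in 4 of 9 cases and lower in none, with a median log2 fold change of 0.21. The called genes were CDT1, ORC1, ORC6 and CDC6. CDT1 (chr16:88803213-88809258), the factor that brings the MCM ring to the origin, was at 14.1 and 17 CPM in siNC and at 23.8 and 29.5 CPM in siPRR11. Both siPRR11 libraries lay above both siNC libraries, and the log2 fold change was 0.78 (SE 0.123, adjusted p = 0.00148). Its inhibitor GMNN was at 45.8, 43.3, 49.6 and 48.8 CPM, a log2 fold change of 0.14 (SE 0.0795, adjusted p = 0.255) that was not called. CDC6, the ATPase that works with ORC and CDT1 in loading, had the highest RPKM of the licensing genes (20.03 and 21.96 in siNC, 27.7 and 29.9 in siPRR11). In CPM it went from 104 and 114 to 139 and 151 (log2 fold change 0.41, SE 0.0799, adjusted p = 0.00488).

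Within ORC, ORC1 and ORC6 were called higher and the core subunits were not. ORC1 (chr1:52372829-52404459), the ATPase subunit that is degraded and rebuilt each cycle, had 6.94 and 7.43 CPM in siNC and 11.7 and 12.5 CPM in siPRR11 (log2 fold change 0.75, SE 0.112, adjusted p = 0.00101). ORC6 (chr16:46689643-46698394), which is needed for MCM loading, had 34.4, 40.7, 61.0 and 63.5 CPM (log2 fold change 0.73, SE 0.0926, adjusted p = 0.000377). For both genes the lowest siPRR11 value exceeded the highest siNC value. The core subunits ORC2, ORC3, ORC4 and ORC5 had log2 fold changes of 0.02, 0.21, 0.08 and 0.03. None of these 4 was called by edgeR, and none reached an unadjusted p under 0.05 or was called by DESeq2 or limma. Their summed CPM was 138 and 139 in siNC and 146 and 143 in siPRR11. Over ORC1 to ORC6 as a whole the median log2 fold change was 0.14. The CPM of that whole set summed to 180 and 187 in siNC and to 218 and 219 in siPRR11. ORC1 and ORC6 are set apart here because they were called, so the split is a description. In siNC, ORC2 was the most abundant subunit (10.7 RPKM) and ORC1 the least (2.24 RPKM), and in siPRR11 ORC6 was the highest (14.7 RPKM) with ORC3 (3.90 RPKM) and ORC1 (3.89 RPKM) side by side as the lowest.

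The CMG helicase is described as its ring and its activators. Among MCM2 to MCM7, the ring itself, edgeR called no gene higher and MCM6 lower, with a median log2 fold change of 0.04. Of the 13144 genes at or above the lowest average level of a replication gene, 10.7% were called higher and 13.2% lower. The ring counts, 0 and 1 of 6 genes, are near these shares. MCM4 had an unadjusted p under 0.05 and was called higher under 5 of the 11 alternatives, among them DESeq2 (0.24) and the fit without siNC replicate 2 (0.30), while limma on RPKM called no ring gene in either direction. Their CPM summed to 802 and 834 in siNC and to 818 and 842 in siPRR11, a ratio of group means of 1.02. Among CDC45, GINS1 to GINS4 and MCM10, which turn the loaded ring into a working helicase, edgeR called 5 of 6 higher and none lower, with a median of 0.50. DESeq2 called 5 higher, and limma on RPKM with a pseudocount of 1 called 3. Their CPM summed to 123 and 120 in siNC and to 173 and 178 in siPRR11, a ratio of 1.44. The difference between these sets was not tested.

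CDC45 (chr22:19479459-19520612) changed most among the helicase genes, from 34.8 and 35.0 CPM to 55.9 and 57.6 CPM (log2 fold change 0.70, SE 0.0788, adjusted p = 0.00018). The libraries of each group were close together and the groups lay far apart. MCM10, another of these activators, went from 24.1 and 24.5 CPM to 33.2 and 36.4 CPM (log2 fold change 0.52, SE 0.0887, adjusted p = 0.00228). Of the GINS subunits, GINS1 (0.50), GINS2 (0.46) and GINS4 (0.50 on the log2 scale) were called higher, and GINS3 was not (log2 fold change 0.08, SE 0.11, adjusted p = 0.688). GINS3 values were 9.81 and 11.1 CPM in siNC and 10.9 and 11.2 CPM in siPRR11, with overlap. The call of GINS2 was lost without siPRR11 replicate 2 (log2 fold change 0.39) and that of GINS4 without siPRR11 replicate 1 (0.37). GINS2 was also not called by limma with a pseudocount of 1 (0.39), nor GINS4 by limma with a pseudocount of 1 (0.41) or 0.1 (0.54). GINS4 shares 23.6% of its exonic bases with genes on the other strand, and GINS3 shares 10.9% with a gene there.

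MCM6 (chr2:135839626-135876426) was the only helicase gene called lower. Its CPM was 79.9 and 92.1 in siNC and 61.9 and 72.2 in siPRR11, so that the highest siPRR11 library lay below the lowest siNC library by less than the distance between replicates. The log2 fold change was -0.36 (SE 0.0963, adjusted p = 0.0242), and the siPRR11 mean was 77.9% of the siNC mean. Without siPRR11 replicate 1 the fall was -0.25 and was no longer called, and limma on RPKM did not call it with a pseudocount of 1 (-0.30) or of 0.1 (-0.31). The other ring genes gave log2 fold changes of -0.15 (MCM2), 0.05 (MCM3), 0.24 (MCM4, adjusted p = 0.0564), 0.02 (MCM5) and 0.08 (MCM7). MCM3 was the most abundant, at 54.7, 53.3, 56.6 and 59.1 RPKM, followed by MCM7 (50.6 RPKM in the siNC mean), MCM2 (23.8), MCM6 (20.5), MCM4 (17.04) and MCM5 (9.19). The ring proteins work in equal numbers, yet the RPKM of MCM3 was several times that of MCM5 in every library. Part of this gap comes from the listed exonic length, 3650 bases for MCM3 and 7338 for MCM5. In siNC replicate 1 their counts were 16593 and 5744. In siPRR11, MCM4 (20.7 RPKM) stood above MCM6 (16.5 RPKM), the reverse of their order in siNC.

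**Figure D3:**
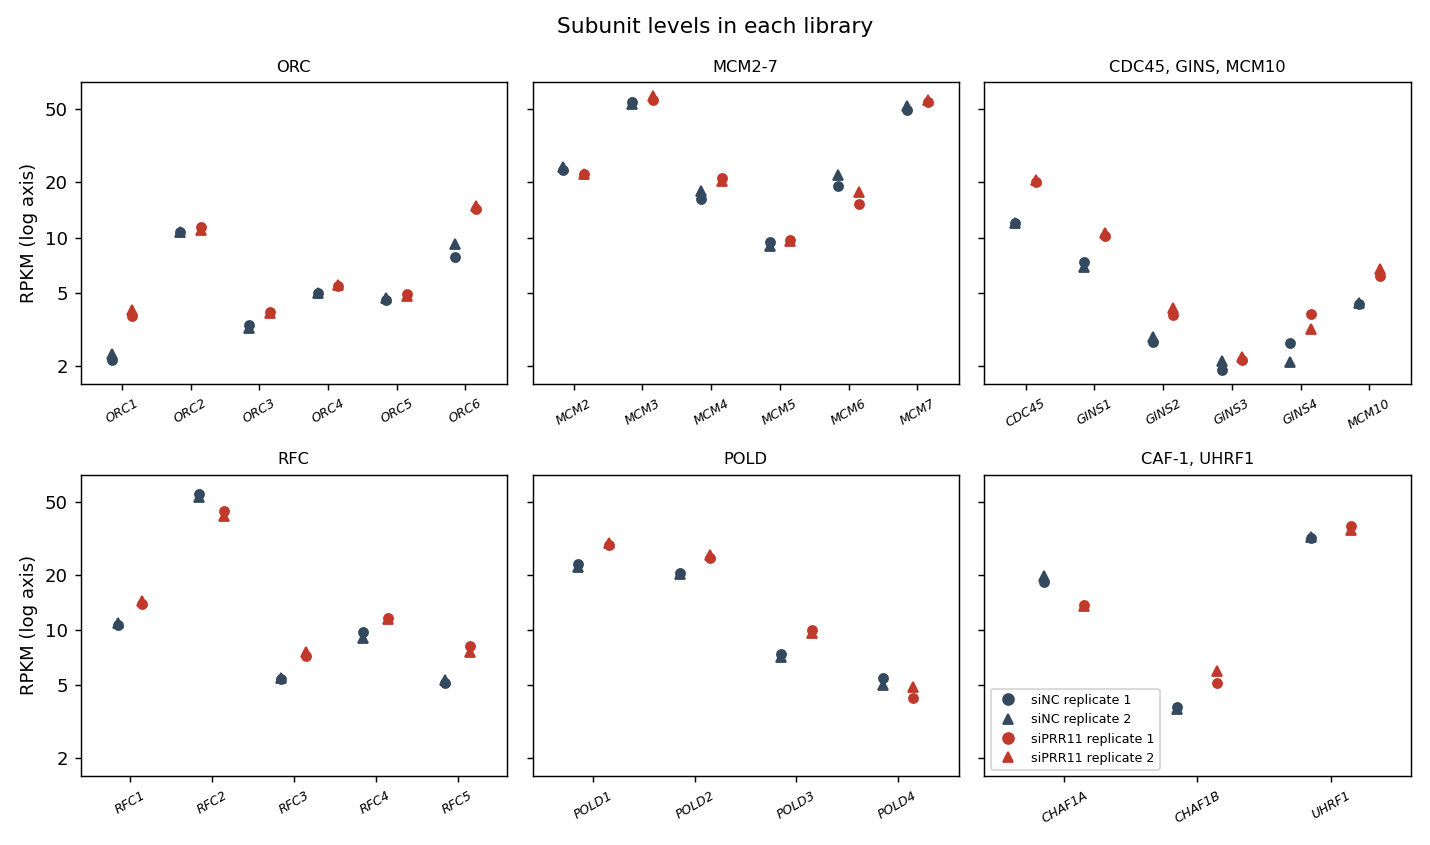
RPKM on a log axis (vertical) of the subunits of ORC, the MCM2 to MCM7 ring, CDC45 with GINS and MCM10, RFC, DNA polymerase delta, and CAF-1 with UHRF1, with 1 point per library (circles replicate 1, triangles replicate 2, dark siNC, red siPRR11). ORC1, ORC6, CDC45 and MCM10 lay higher in both siPRR11 libraries, while MCM6, RFC2 and CHAF1A lay lower.

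Replicative polymerase genes were called higher in 6 of 12 cases and lower in none, with a median log2 fold change of 0.29. DNA polymerase alpha with primase starts each new strand, delta extends the lagging strand and epsilon the leading strand. POLA2 (chr11:65261762-65305589), the regulatory subunit of polymerase alpha, had the largest fitted rise of the 55 genes. The rises of CDT1, ORC1, ORC6 and CDC45 lay within 1 SE of POLA2 from it. Without siPRR11 replicate 1 its log2 fold change was 0.70 and that of CDT1 0.92. POLA2 was at 9.96 and 9.24 CPM in siNC and at 17.5 and 15.6 CPM in siPRR11 (log2 fold change 0.79, SE 0.108, adjusted p = 0.000616). Its catalytic partner POLA1 (0.15) and the primase subunits PRIM1 (0.10) and PRIM2 (0.28) were not called. In RPKM POLA2 rose from 1.65 to 2.94 in group means, and remained below POLA1 (4.46 and 5.10).

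For polymerase delta, POLD1, the catalytic subunit, POLD2 and POLD3 were called higher with log2 fold changes of 0.35, 0.26 and 0.39. POLD1 had 113 and 108 CPM in siNC and 139 and 142 CPM in siPRR11, without overlap. POLD4, the small accessory subunit, had 16.9, 15.5, 12.7 and 14.6 CPM, a log2 fold change of -0.25 (SE 0.106, adjusted p = 0.14) that was not called. POLD4 shares 21.3% of its exonic bases with another gene on the same strand. Without siPRR11 replicate 2 the calls of POLD1 (0.33) and POLD2 (0.24) were lost, and without siPRR11 replicate 1 those of POLD2 (0.29) and POLD3 (0.37).

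For polymerase epsilon, the catalytic subunit POLE was at 78.8 and 94.9 CPM in siNC and at 119 and 124 CPM in siPRR11 (log2 fold change 0.49, SE 0.0914, adjusted p = 0.00387). POLE4, a histone-fold subunit, was called at the edge of the threshold (0.30, SE 0.0934, adjusted p = 0.05 after rounding) and lost the call without siNC replicate 1 (0.28), without siPRR11 replicate 1 (0.37) and without siPRR11 replicate 2 (0.21), and in limma with a pseudocount of 1 (0.31) or 0.1 (0.34). Its histone-fold partner POLE3 had the highest RPKM of the polymerase genes, at 38.6, 39.6, 37.5 and 41.3. POLE3 overlapped between groups (log2 fold change -0.04, SE 0.0779, adjusted p = 0.803). POLE2, which was the least abundant of the 55 genes at 0.847 RPKM in siNC, had the largest log2 fold change among the uncalled genes, 0.47 (SE 0.165, adjusted p = 0.0763). Its SE was also the largest of the 55.

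The clamp and clamp loader genes had a median log2 fold change of 0.39, with 5 of 7 called higher and 1 lower. PCNA, the ring that tethers polymerases to DNA, was at 44.6 and 48.3 CPM in siNC and at 59.7 and 64.3 CPM in siPRR11 (chr20:5114953-5126626, log2 fold change 0.42, SE 0.0829, adjusted p = 0.00534). The RFC pentamer opens this ring and places it on DNA. RFC5 was at 16.9, 17.7, 26.1 and 24.3 CPM (log2 fold change 0.54, SE 0.0928, adjusted p = 0.00222), and RFC1 (0.34) and RFC3 (0.39) were also called higher. RFC4 was not called (0.25, adjusted p = 0.0685). RFC5 shares 10.6% of its exonic bases with genes on the other strand.

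RFC2 (chr7:74231499-74254458) moved the other way, from 124 and 120 CPM to 96.7 and 90.5 CPM. The groups did not overlap, and the siPRR11 mean was 76.9% of the siNC mean (log2 fold change -0.38, SE 0.0749, adjusted p = 0.00518). RFC2 was also the most abundant clamp loader RNA, with 55.1 and 53.2 RPKM in siNC and 44.5 and 41.6 RPKM in siPRR11, where the other 4 RFC genes lay between 5.24 (RFC5) and 10.8 (RFC1) RPKM in the siNC mean. Because RFC2 fell while 3 less abundant subunits rose, the CPM of RFC1 to RFC5 summed to 259 and 255 in siNC and to 269 and 265 in siPRR11. DSCC1, a subunit of the alternative loader that acts in sister chromatid cohesion, was called higher (log2 fold change 0.44, SE 0.123, adjusted p = 0.031). Without siPRR11 replicate 2 the calls of RFC2 (-0.33), PCNA (0.36), RFC1 (0.31) and RFC3 (0.35) were lost, and without siPRR11 replicate 1 that of DSCC1 (0.27), which limma also did not call with a pseudocount of 1 (0.39) or 0.1 (0.46).

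Genes of Okazaki fragment processing were called higher in 4 of 6 cases and lower in none, with a median log2 fold change of 0.35. DNA2, a helicase and nuclease that trims long flaps, was at 17.3 and 15.8 CPM in siNC and at 24.9 and 26.2 CPM in siPRR11 (log2 fold change 0.62, SE 0.0944, adjusted p = 0.00112). FEN1, the nuclease that cuts short flaps and the most abundant of this role, was at 19.9 and 19.8 RPKM in siNC and at 26.1 and 28.8 RPKM in siPRR11, with a log2 fold change of 0.42 (SE 0.0814, adjusted p = 0.00488). LIG1, the ligase that seals the fragments, was called with a smaller change (0.28, SE 0.0846, adjusted p = 0.044). The call of FEN1 was lost without siPRR11 replicate 2 (0.34), and that of LIG1 without siNC replicate 2 (0.17), siPRR11 replicate 1 (0.25) or siPRR11 replicate 2 (0.30). LIG1 was also not called by limma with a pseudocount of 1 (0.31) or 0.1 (0.33).

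RNase H2 removes RNA primers and single ribonucleotides from DNA. Its catalytic subunit RNASEH2A was at 22.0, 19.7, 29.6 and 28.4 CPM (log2 fold change 0.47, SE 0.0936, adjusted p = 0.00523) and was called higher. The accessory subunits RNASEH2B (-0.14, adjusted p = 0.447) and RNASEH2C (0.02, adjusted p = 0.934) were not called. RNASEH2C shares 30.2% of its exonic bases with KAT5 on the other strand, the largest such share among the 55 genes.

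Fork protection genes were called higher in 2 of 6 cases and lower in none, with a median log2 fold change of 0.28. TIMELESS (chr12:56416373-56449403), which with TIPIN and claspin keeps helicase and polymerase together, was at 219 and 201 CPM in siNC and at 340 and 318 CPM in siPRR11 (log2 fold change 0.65, SE 0.0767, adjusted p = 0.00025). It was the most abundant gene of this role and rose from 37.1 and 34.0 RPKM to 59.5 and 55.5 RPKM, which put it level with MCM3 in siPRR11. Its partner TIPIN had 11.3, 10.8, 13.3 and 13.7 CPM (log2 fold change 0.28, SE 0.102, adjusted p = 0.0818) and was not called. TIPIN was at 3.96 RPKM in siNC against 35.5 RPKM for TIMELESS. CLSPN (claspin), which relays the checkpoint signal, was at 89.4 and 94.2 CPM in siNC and at 119 and 114 CPM in siPRR11 (log2 fold change 0.34, SE 0.0746, adjusted p = 0.00881). Without siPRR11 replicate 1 its change was 0.31 and was not called. TIPIN shares 21.0% of its exonic bases with a pseudogene on the same strand.

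RPA coats single-stranded DNA behind the helicase. Its subunits RPA1 (log2 fold change 0.18, adjusted p = 0.117), RPA2 (0.27, adjusted p = 0.0542) and RPA3 (0.02, adjusted p = 0.91) gave 0 calls in edgeR and 0 in DESeq2, although 2 had an unadjusted p under 0.05 and limma called 1, RPA2. RPA2 had 23.2 and 24.6 CPM in siNC and 28.8 CPM in both siPRR11 libraries. RPA3 overlapped between groups, at 65.0, 58.0, 63.1 and 61.6 CPM.

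Chromatin genes that act behind the fork moved in opposite directions. CAF-1 places new histones on the copied strands, and its large subunit CHAF1A (chr19:4402662-4445018) fell from 80.1 and 86.1 CPM to 57.8 and 57.3 CPM. The siPRR11 mean was 69.3% of the siNC mean (log2 fold change -0.53, SE 0.0769, adjusted p = 0.000872), the largest fall of the 55 genes. The middle subunit CHAF1B went from 19.8 and 19.3 CPM to 25.7 and 29.9 CPM (log2 fold change 0.51, SE 0.0991, adjusted p = 0.00464). UHRF1, which brings the maintenance methyltransferase to newly copied DNA, was the most abundant of the 3, at 31.7, 32.1, 36.8 and 34.8 RPKM. It was not called (log2 fold change 0.12, SE 0.0716, adjusted p = 0.301). The call of CHAF1B was lost without siPRR11 replicate 2 (0.40), and that of CHAF1A held without each library.

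Because partners moved unequally, ratios of RPKM between subunits shifted inside each library. The ratio of CDT1 to GMNN, the licensing factor to its inhibitor, was 0.229 and 0.291 in siNC and 0.357 and 0.448 in siPRR11. All other pairs were picked after their values were seen and are descriptions. CHAF1A to CHAF1B was 4.82 and 5.32 in siNC and 2.67 and 2.28 in siPRR11. RFC2 to RFC5 was 10.7 and 9.93 in siNC and 5.44 and 5.46 in siPRR11, so in both pairs the more abundant RNA exceeded its partner by less in siPRR11. CDC45 to the mean of MCM2 to MCM7 was 0.419 and 0.407 in siNC and 0.668 and 0.665 in siPRR11. ORC1 to ORC2 was 0.202 and 0.216 in siNC and 0.328 and 0.367 in siPRR11. No ratio overlapped between groups, and 2 libraries against 2 cannot give a two-sided exact permutation p below 0.333.

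Other genes of DNA replication, 30 in a list made beside the 55, were described in the same way. Of these, 15 were called higher and 0 lower by edgeR, beside 7.61% higher and 9.14% lower among all genes tested. Among the 13144 genes at or above the lowest average level of the 55, the shares were 10.7% and 13.2%. At an unadjusted p under 0.05 the counts for the 30 genes were 17 and 0, with DESeq2 16 and 0, and with limma on RPKM (pseudocount 1) 11 and 0. In either direction, DESeq2 called 16.4% of all genes tested and this limma fit called 8.21%. The share of all genes at an unadjusted p under 0.05 was not counted. The median log2 fold change of the 30 genes was 0.28. DTL, the adaptor of the ubiquitin ligase that removes CDT1 on PCNA-bound DNA, had the largest rise, from 17.3 and 18.6 CPM to 33.1 and 34.2 CPM (log2 fold change 0.91, SE 0.0898, adjusted p = 7.71e-05). Its values in siPRR11 were nearly double those in siNC in both libraries, in the same libraries in which CDT1 RNA was higher.

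Genes of neighbouring processes were counted in the same fit. Of 12 mitotic genes, 7 were called higher and 0 lower with a median log2 fold change of 0.33 (10 and 0 at an unadjusted p under 0.05, 7 and 0 with DESeq2, 6 and 0 with limma). Of 9 genes of dNTP supply, 4 were called higher and 1 lower (5 and 2 at an unadjusted p under 0.05, 4 and 1 with DESeq2, 4 and 1 with limma). Over all genes tested, edgeR called 7.61% higher and 9.14% lower. Of the 13144 genes at or above the lowest average level of the 55, it called 10.7% higher and 13.2% lower. In either direction, DESeq2 called 16.4% of all genes tested and limma with a pseudocount of 1 called 8.21%. No such share was counted at an unadjusted p under 0.05. The dNTP gene called lower was RRM1, the large subunit of ribonucleotide reductase (log2 fold change -1.35, SE 0.0764, adjusted p = 1.94e-06). RRM2, another subunit of that enzyme, was called higher (log2 fold change 1.18, SE 0.0733, adjusted p = 3.51e-06). Both changes exceeded in size that of each of the 55 replication genes. Mitotic genes were thus called higher in the same libraries as replication genes, and whether a shift of cells between phases of the cycle had a part in either was not tested.

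Some counts are less certain because genes overlap. Of the 55 genes, 32 share no exonic base with another gene in the count table and 12 share at least 5% of theirs. MCM7 shares 8.94% and POLD1 8.77%. ORC1, ORC6, CDT1, CDC45, POLA2, TIMELESS, MCM6 and RFC2 share none, and CHAF1A shares 2.35%.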

How the data were processed

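RNA of 4 ACHN libraries (2 siNC, 2 siPRR11) was analysed, with groups and replicate numbers taken from the labels. Per the study's methods and the submitters' processing notes, stranded libraries were read on a DNBSEQ-T7, reads were trimmed (Trimmomatic 0.36), aligned to GRCh38 with STAR and counted per gene with featureCounts (Subread 1.5.1). The authors deposited raw read counts and RPKM. The RPKM values equal the count divided by exonic length and column total to within 3.08e-06% over 15916 genes. Neither the annotation release nor the strand setting of the counting is given in the sources used here.

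Counts were tested with edgeR 4.0.16 (quasi-likelihood, TMM, filterByExpr, condition only) in R 4.3.3, with Benjamini-Hochberg adjustment over 21630 of 36359 genes and a threshold of 0.05. The SE is the absolute log2 fold change divided by the square root of F. TMM factors were 0.983 to 1.02 and the common biological coefficient of variation was 0.0856. Replicates differed beyond counting noise (chi-square per degree of freedom 20.8 in siNC and 14.1 in siPRR11). Alternatives were RLE factors, DESeq2 1.42.0, no filter, a minimum of 10 counts per library, a replicate block, limma 3.58.1 with trend on log2(RPKM + 1) or log2(RPKM + 0.1), and each library left out. The fit was tested on simulated data.

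The genes, roles and lists were chosen with earlier results of these data known, so no list was tested and no p-value was adjusted over a list. Values in every library are given for PRR11 and, in each role, for the called gene with the largest rise and the largest fall and for the gene with the highest mean RPKM. Complexes were described as sets. Other values by library were added after they were seen. For 2 genes of the 30 other replication genes, the table held an older symbol. Marker lists covered renal epithelium, leukocytes, endothelium, smooth muscle and hepatocytes. Promoter windows and motif letters came from RefSeq (GRCh38.p14).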

Additional observations from a re-analysis of the deposited data

How the results depend on the processing

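Under the 11 alternatives, 14 of the 30 called replication genes (13 higher, and CHAF1A lower) stayed past the threshold throughout, 16 lost the call at least once, and none of the 30 changed sign. Of the 25 uncalled genes, 8 were called at least once and 7 changed sign. The count called higher was 17 without siPRR11 replicate 2, and ranged from 17 to 28 over fits without one library, in which the lone library left in a group is assumed to vary like the other group. All genes called numbered 3622 in the reported fit, 6988 with the replicate block, 1775 and 1878 in the limma fits with a pseudocount of 1 and 0.1, and 2172 and 2393 without siPRR11 replicate 1 and replicate 2. The labels share replicate numbers between groups. Deviations of same-numbered libraries correlated at 0.482 over 14193 genes. With only 2 pairs and no stated pairing, whether same-numbered libraries share more than a number cannot be told. The reported fit does not model such sharing. With the replicate block, 34 replication genes were called higher and 4 lower, POLD4 being the added fall, and among the other replication genes the count called lower was 1, and it was 1 without siNC replicate 1 (range 0 to 1 over the fits without one library). The median log2 fold change of the 55 genes was 0.30 and 0.32 in the limma fits with a pseudocount of 1 and 0.1, and 0.26 to 0.30 without one library. The median over all genes tested was 0.02 and 0.04 in these limma fits, against 0.00 in the reported fit. The helicase median ranged from 0.12 to 0.23 (0.23 without siNC replicate 2) and the Okazaki median from 0.28 to 0.40 (0.28 without siNC replicate 2), and the fork protection median was 0.32 with limma at a pseudocount of 0.1. Signs turned in fits without one library for ORC2 (-0.0101 to 0.0488), MCM5 (-0.015 to 0.0567), GINS3 (-0.0132 to 0.164), PRIM1 (-0.0163 to 0.216), POLE3 (-0.109 to 0.0355), RNASEH2C (-0.0216 to 0.053) and RPA3 (-0.0643 to 0.101), and for POLE3 in both limma fits (0.00993 with a pseudocount of 1 and 0.0101 with 0.1), all log2 fold changes of genes that were not called. The cause of these shifts was not tested. The lowest count of a replication gene in any library was 134, and how counting error and the spread between libraries share in the SEs was not tested.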
